A study of Mus musculus with 2 samples.

Results

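The 10 genes described here make and load MHC class I. They were taken by symbol from the 32285 genes measured in single cells of the mouse optic nerve, and all 10 were found. They are the light chain gene B2m, the heavy chain genes H2-K1, H2-D1 and H2-T23, the peptide transporter genes Tap1 and Tap2, the tapasin gene Tapbp, the immunoproteasome genes Psmb8 and Psmb9, and Nlrc5, which encodes a transactivator of class I genes. Each was counted in cell classes taken by marker genes, none of which is among the 10.

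The cells came from Nf1-OPG mice, a model of the optic pathway glioma of neurofibromatosis, and 1 library was made per treatment. One group was given anti-PDCD1, an antibody against the receptor PD-1, and the other anti-TIGIT, an antibody against the receptor TIGIT, and both receptors restrain T cells. Every mouse in both groups was Nf1flox/neo; GFAP-Cre, so that Nf1 is lost in neuroglial progenitors and other cells keep 1 working copy. Nerves of 10 mice, aged 12 weeks, went into each library, and live cells were sorted from them as negative for the dye 7-AAD. The labels give neither the dose nor the schedule of the antibodies, and their protocol also mentions meningeal dura without saying whether any entered these libraries. An untreated library was not analysed here, each ratio sets anti-PDCD1 against anti-TIGIT, and neither is a baseline.

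MHC class I carries peptides of a cell's own proteins to the cell surface, where CD8 T cells read them. The proteasome cuts the peptides, TAP1 and TAP2 carry them into the endoplasmic reticulum, and tapasin helps to place them on a heavy chain paired with beta-2-microglobulin. Interferon gamma is known to raise these genes through factors that include IRF1 and NLRC5, and to exchange catalytic subunits of the proteasome for those of the immunoproteasome. In the healthy nervous system oligodendrocytes, which make myelin, carry little class I.

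Class I genes are known for short promoter elements that interferon regulatory factors, NF-kB, CREB family proteins and NF-Y bind. The promoters of the light chain gene, both classical heavy chain genes and a transporter gene are shown as examples of the elements they share and do not share. The 300-base windows, from 250 bases before to 50 bases after the annotated start, come from RefSeq (GRCm38.p6), whose promoter table held 8 of the 10 genes, without Tap2 and Nlrc5. They lie at chr2:122147437-122147736 (plus strand) for B2m, chr17:34000298-34000597 (minus strand) for H2-K1, chr17:35262844-35263143 (plus strand) for H2-D1 and chr17:34187306-34187605 (plus strand) for Tap1. Capitals mark the motifs described next, on either strand, and each sequence is written 5′ to 3′ along its gene.
B2m: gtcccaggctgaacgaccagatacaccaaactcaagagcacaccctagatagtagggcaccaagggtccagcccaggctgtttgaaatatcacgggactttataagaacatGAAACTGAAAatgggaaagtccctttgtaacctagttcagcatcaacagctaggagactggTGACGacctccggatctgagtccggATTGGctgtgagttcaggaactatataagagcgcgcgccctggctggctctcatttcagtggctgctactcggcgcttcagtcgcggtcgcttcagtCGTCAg
H2-K1: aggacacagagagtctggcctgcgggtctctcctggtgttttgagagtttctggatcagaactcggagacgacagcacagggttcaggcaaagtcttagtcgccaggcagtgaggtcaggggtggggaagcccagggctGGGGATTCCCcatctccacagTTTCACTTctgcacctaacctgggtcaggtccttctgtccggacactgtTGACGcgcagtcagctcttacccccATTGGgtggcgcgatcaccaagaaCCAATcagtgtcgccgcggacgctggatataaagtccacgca
H2-D1: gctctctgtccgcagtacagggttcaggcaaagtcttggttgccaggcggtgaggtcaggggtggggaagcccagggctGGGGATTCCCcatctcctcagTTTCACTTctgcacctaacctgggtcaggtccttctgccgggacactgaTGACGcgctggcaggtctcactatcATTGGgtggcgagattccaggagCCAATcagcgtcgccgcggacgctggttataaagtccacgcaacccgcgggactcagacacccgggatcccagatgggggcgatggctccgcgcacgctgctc
Tap1: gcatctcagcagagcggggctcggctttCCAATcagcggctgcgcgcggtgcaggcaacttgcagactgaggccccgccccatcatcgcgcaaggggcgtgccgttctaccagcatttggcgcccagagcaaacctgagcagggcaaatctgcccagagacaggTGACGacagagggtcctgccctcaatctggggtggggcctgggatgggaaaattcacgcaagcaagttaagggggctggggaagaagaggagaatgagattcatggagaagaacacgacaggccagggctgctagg

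The motifs were chosen after these sequences were seen, and a match is a description of letters, not a bound site. AANNGAAA, the core of sites for interferon regulatory factors, was in the windows of B2m, H2-K1, H2-D1 and H2-T23, 4 of the 8, and in 24.2% of all 27025 promoters of the table. The longer interferon-stimulated response element, searched as GAAA, any 2 bases and GAAA, contains that core and was in those of B2m and H2-T23 and in 3.49% of all promoters. TGACG, the core of the X2 box that CREB family proteins bind, was in 5 of the 8 (B2m, H2-K1, H2-D1, Tap1 and Psmb9) and in 21% of all. CCAAT, the letters bound by NF-Y, was in 7 of the 8, all but Psmb8, and in 37.9% of all. The NF-kB motif of class I promoters was in H2-K1 and H2-D1, as the first capitals of those windows, and in 0.104% of all. The windows of H2-K1 and H2-D1 matched at 214 of 239 aligned bases (89.5%). Tap1 and Psmb9 start head to head 226 bases apart, and their windows share 275 bases, so the Tap1 sequence above is also most of that of Psmb9. In the annotation of GRCm38, B2m lies on chromosome 2, Nlrc5 on chromosome 8 and the other 8 genes on chromosome 17, in the MHC region.

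The anti-PDCD1 library held 13997 barcodes and 85031565 UMIs (counted RNA molecules), with a median of 4505 per barcode, and the anti-TIGIT library 7915 barcodes and 40733655 UMIs, with a median of 4082. After filtering, 13260 and 7505 cells remained, and 145 of their barcodes occurred in both libraries. The libraries are compared in the 11 classes that reach 100 cells in both, and levels are also given for 3 classes that reach 50. A level is CPM, the gene's UMIs per 1000000 UMIs of the class. With 1 library per group there are no replicates, so no difference has a replicate check and no test was run. Ranges in parentheses are 95% intervals that cover counting error only, not differences between mice or preparations. A gene is called at least 2-fold apart by size alone, on the scale of log2(CPM + 5), among genes with at least 10 UMIs. The pools held both sexes in unequal shares: of cells with only Xist or only Y-linked UMIs, the Xist cells were 41.3% of oligodendrocytes in anti-PDCD1 and 43.4% in anti-TIGIT, but 57.0% and 25.3% of CD8 T cells.

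In oligodendrocytes, each of the 10 genes was higher by 2-fold or more in the anti-PDCD1 library (2507 cells) than in the anti-TIGIT library (1970 cells). Of all 15337 genes tested in these cells, 1.7% were that much higher and 0.189% that much lower. The median log2 ratio of (CPM + 5) was 3.24 over the 10 genes and -0.01 over all genes tested. The class carried the lineage factor gene Olig2 in both libraries, at 93.1 CPM in anti-PDCD1 and 94.6 CPM in anti-TIGIT.

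The chains of the class I molecule all shared the direction. B2m, the light chain that every class I molecule needs, stood at 1459 CPM (1441 to 1477) in anti-PDCD1 oligodendrocytes and 225 CPM (218 to 234) in anti-TIGIT oligodendrocytes, a 6.47-fold ratio and a log2 ratio of 2.69 (2.64 to 2.75). H2-K1, a classical heavy chain that presents to CD8 T cells, stood at 1063 CPM (1048 to 1079) in anti-PDCD1 and 94.8 CPM (89.7 to 100.1) in anti-TIGIT, a log2 ratio of 3.49 (3.41 to 3.57). H2-D1, the other classical heavy chain here, reached 2427 CPM (2404 to 2451) in anti-PDCD1, against 288 CPM (279 to 297) in anti-TIGIT, a log2 ratio of 3.08 (3.03 to 3.12). The light chain thus had a smaller ratio than either classical heavy chain, and none of these intervals overlapped. H2-T23 encodes Qa-1, a non-classical molecule read by the NKG2A receptor of NK and CD8 T cells. It had the highest ratio of the chains, with 764 CPM (751 to 777) in anti-PDCD1 against 38.6 CPM (35.4 to 42.0) in anti-TIGIT and a log2 ratio of 4.31 (4.18 to 4.43).

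The genes that supply and load the peptides were low in anti-TIGIT oligodendrocytes. Tap1 had 1986 UMIs and 115 CPM (109.8 to 119.9) in anti-PDCD1, against 79 UMIs and 5.76 CPM (4.56 to 7.18) in anti-TIGIT, a log2 ratio of 4.32 (3.99 to 4.66). Tap2, the other subunit of the transporter, stood at 89.6 CPM (85.2 to 94.2) in anti-PDCD1 against 6.79 CPM (5.48 to 8.31) in anti-TIGIT, a log2 ratio of 3.72 (3.42 to 4.04). Tapbp, whose product tapasin bridges transporter and heavy chain, had the smallest ratio of the 10, at 83.7 CPM (79.5 to 88.2) in anti-PDCD1 against 19.2 CPM (16.9 to 21.7) in anti-TIGIT, a log2 ratio of 2.13 (1.94 to 2.32). The 3 loading genes were thus unequally apart, with Tapbp below both transporter genes beyond its interval. Nlrc5, the transactivator, had 515 UMIs and 29.8 CPM (27.2 to 32.5) in anti-PDCD1 and 58 UMIs and 4.23 CPM (3.21 to 5.47) in anti-TIGIT, a log2 ratio of 2.81 (2.42 to 3.23).

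**Figure D1:**
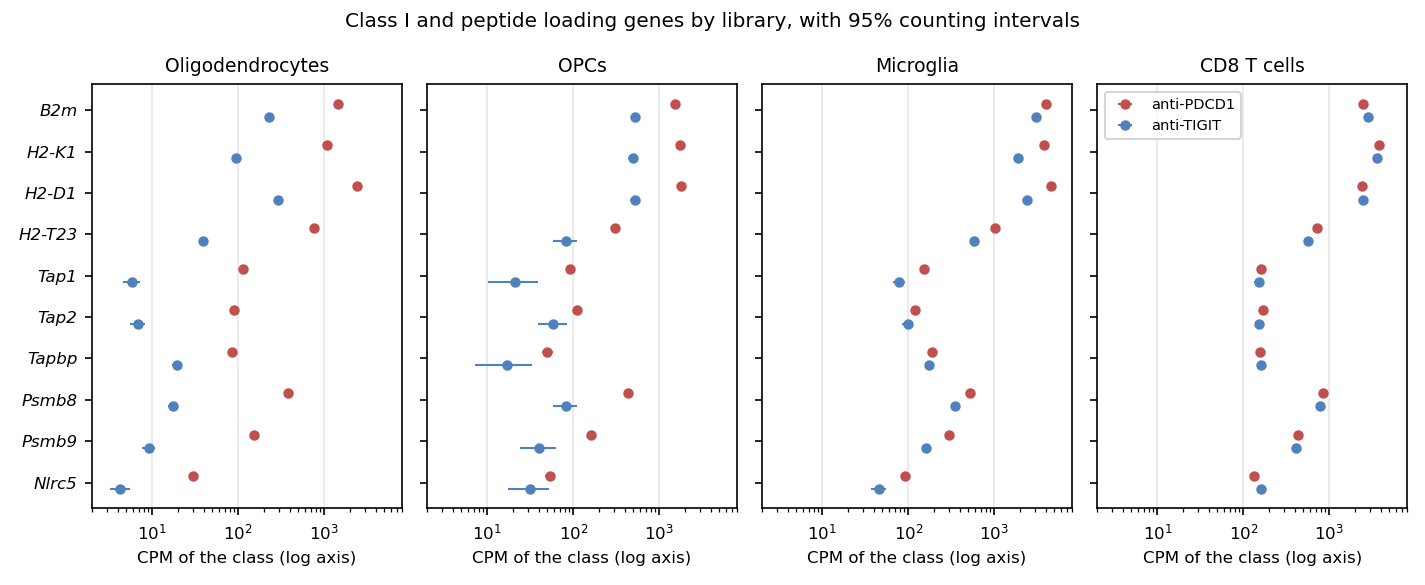
Level of each gene in 4 cell classes, in CPM of the class on a log axis, for the anti-PDCD1 and the anti-TIGIT library; each point is 1 library and bars are 95% counting intervals. In oligodendrocytes the anti-PDCD1 points lie far to the right of the anti-TIGIT points for all 10 genes, while in CD8 T cells they nearly coincide, as with H2-K1 at 3790.3 and 3602 CPM.

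The subunits of the proteasome divided by kind. Psmb8, which takes the place of Psmb5 in the immunoproteasome, stood at 378 CPM (369 to 387) in anti-PDCD1 oligodendrocytes and 17.4 CPM (15.2 to 19.7) in anti-TIGIT oligodendrocytes, a log2 ratio of 4.44 (4.26 to 4.64). Psmb9, which takes the place of Psmb6, stood at 152 CPM (146 to 158) in anti-PDCD1 against 9.05 CPM (7.53 to 10.8) in anti-TIGIT, a log2 ratio of 4.07 (3.81 to 4.34). Psmb10, the remaining such subunit and not among the 10, stood at 121 CPM against 15.5 CPM, a log2 ratio of 2.97 (2.76 to 3.18). Their constitutive partners lay near 0, with log2 ratios of 0.10 (0.03 to 0.17) for Psmb5, -0.06 (-0.12 to 0.01) for Psmb6 and -0.28 (-0.37 to -0.19) for Psmb7. None of the 15 constitutive proteasome genes was 2-fold apart, and their median log2 ratio of (CPM + 5) was 0.05, with a range of -0.27 to 0.13.

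As a share of each pair, Psmb8 made up 63.8% (62.8 to 64.7) of the UMIs of Psmb8 and Psmb5 in anti-PDCD1 oligodendrocytes and 7.97% (7.03 to 9.003) in anti-TIGIT oligodendrocytes. Psmb9 made up 35.7% (34.6 to 36.8) of its pair with Psmb6 in anti-PDCD1 and 3.08% (2.57 to 3.67) in anti-TIGIT. In OPCs, the precursors of oligodendrocytes, the Psmb8 share was 57.2% (55.3 to 59.1) in anti-PDCD1 against 21.8% (16.0 to 28.6) in anti-TIGIT. Immune classes held high shares in both libraries. In microglia the Psmb8 share was 83.9% (82.9 to 84.8) in anti-PDCD1 against 77.7% (74.8 to 80.3) in anti-TIGIT, and in CD8 T cells 81.7% (80.7 to 82.6) against 81.5% (79.8 to 83.2). Anti-PDCD1 oligodendrocytes thus lay between anti-TIGIT oligodendrocytes and the immune classes. Genes of a pair can be captured with unequal efficiency, so a share compares classes and libraries and not the amounts of both subunits.

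**Figure D2:**
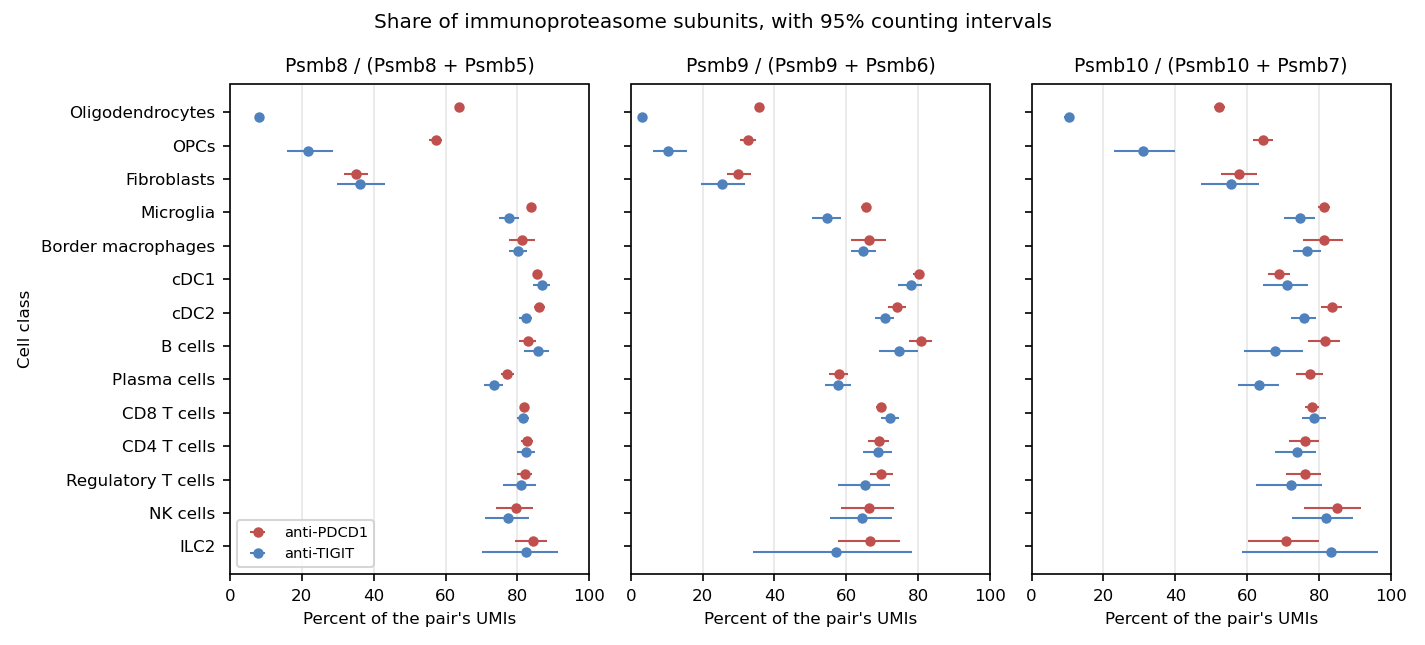
Share of the immunoproteasome subunit in the UMIs of each pair with its constitutive partner, in percent, by cell class, for the anti-PDCD1 and the anti-TIGIT library, with 95% counting intervals. In oligodendrocytes the Psmb8 share is 63.8% in anti-PDCD1 and 7.97% in anti-TIGIT, while in fibroblasts it is 34.9% and 36.3%.

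OPCs showed the same direction at a smaller size, over 612 cells of the anti-PDCD1 library and 101 of the anti-TIGIT library. There 8 of the 10 genes were at least 2-fold higher in anti-PDCD1, beside 4.02% of the 13126 genes tested, and none was 2-fold lower, beside 3.17%. Their median log2 ratio of (CPM + 5) was 1.77, and -0.08 over all genes. Psmb8 stood at 428 CPM (407 to 449.5) in anti-PDCD1 against 81.8 CPM (58.2 to 112) in anti-TIGIT, a log2 ratio of 2.39 (1.93 to 2.88). H2-K1 stood at 1725 CPM (1683 to 1768) in anti-PDCD1 against 497 CPM (436 to 565) in anti-TIGIT, a log2 ratio of 1.79 (1.61 to 1.99). The genes below 2-fold were Tap2, with a log2 ratio of 0.90 (0.34 to 1.51), and Nlrc5, with 0.77 (0.02 to 1.64). Counts behind the anti-TIGIT values were small, with 10 UMIs for Tap1, 8 for Tapbp and 15 for Nlrc5. Nlrc5 in OPCs changed sign in cells with Y-linked UMIs only, where the log2 ratio of (CPM + 5) was -0.17 over 218 and 29 cells, and the median of the 10 genes was 3.11 in cells with Xist UMIs only, over 171 and 39 cells.

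Fibroblasts, the connective tissue cells of nerve and meninges, gave 1 gene at least 2-fold higher among 286 cells of the anti-PDCD1 library and 118 of the anti-TIGIT library, beside 2% of the 11479 genes tested. It was H2-K1, at 999 CPM (957 to 1043) in anti-PDCD1 against 416 CPM (369 to 468) in anti-TIGIT, a log2 ratio of 1.26 (1.08 to 1.45). The other chain genes lay at smaller log2 ratios, 0.58 (0.41 to 0.75) for B2m, 0.74 (0.58 to 0.90) for H2-D1 and 0.24 (0.04 to 0.43) for H2-T23, and the intervals of the remaining 6 genes held 0. Nlrc5 rested on 8 and 2 UMIs. The median over the 10 genes was 0.23, and -0.06 over all genes tested. In cells thinned to 1000 UMIs, H2-K1 was seen in 44.2% (38.3 to 50.3) of 278 fibroblasts of anti-PDCD1 and 34.8% (26.1 to 44.2) of 115 of anti-TIGIT, and the difference of 9.46 (-1.26 to 19.5) points has an interval that holds 0. Unthinned, the shares were 82.2% and 68.6% at median depths of 6809 and 4861.5 UMIs. The 10 genes summed to a median of 2 UMIs per thinned fibroblast in both libraries, and 10.8% (7.40 to 15.05) of anti-PDCD1 and 0.870% (0.0220 to 4.75) of anti-TIGIT fibroblasts had at least 10. With 1 more marker required of a fibroblast (179 and 74 cells) the median of the 10 was 0.77.

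Microglia, the resident macrophages of nervous tissue, carried class I at high levels in both libraries (1426 and 533 cells). None of the 10 genes passed 2-fold in either direction, beside 1.06% of 13041 genes higher and 1.68% lower, but the intervals of 9 lay above 0 and that of Tapbp held 0. H2-K1 stood at 3763 CPM (3725 to 3802) in anti-PDCD1 microglia and 1908 CPM (1849 to 1968) in anti-TIGIT microglia, a log2 ratio of 0.98 (0.93 to 1.03). The median was 0.82 over the 10 genes and -0.13 over all genes, so that the list lay 0.96 above the median gene. Scaled to that median gene, H2-K1, H2-D1, Tap1 and Nlrc5 narrowly passed 2-fold in microglia, from unscaled log2 ratios of (CPM + 5) of 0.92 to 0.98. On that scale 3.55% of all pairs of gene and class over the 11 classes were 2-fold apart. The share of all genes in microglia alone was not computed. Microglia of the libraries lay mostly in different transcriptome clusters, with 59.0% of anti-PDCD1 and 11.6% of anti-TIGIT microglia in cluster 0, and 10.2% and 48.4% in cluster 34. Within cluster 0 (841 and 62 cells) the median of the 10 was 0.23, and none was 2-fold higher or lower, beside 2.78% and 2.93% of all genes. Within cluster 34 (146 and 258 cells) it was 0.03, and none was 2-fold higher or lower, beside 1.17% and 1.96%. There the intervals of 3 genes lay below 0, with log2 ratios of -0.49 (-0.59 to -0.39) for B2m, -0.40 (-0.53 to -0.26) for H2-K1 and -0.26 (-0.36 to -0.15) for H2-D1, so that these were lower in anti-PDCD1, while that of Psmb9, 0.70 (0.26 to 1.14), lay above 0. In cluster 0 B2m was likewise lower, -0.15 (-0.22 to -0.08), and the intervals of H2-K1, H2-D1 and H2-T23 lay above 0. The median was 1.37 in microglia with Xist UMIs only and 0.41 in those with Y-linked UMIs only.

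The other 7 compared classes were immune, and none of the 10 genes was 2-fold higher or lower in any of them. The shares of all genes that were 2-fold higher and lower were 1.17% and 1.23% in border macrophages, 2.38% and 1.61% in cDC1, and 0.773% and 0.737% in cDC2, which are dendritic cells. They were 3.56% and 5.26% in B cells, 1.18% and 0.763% in plasma cells, 1.51% and 0.667% in CD8 T cells, and 2.95% and 1% in CD4 T cells. The medians of the 10 genes lay between 0.00 in CD4 T cells and 0.29 in cDC2. Within CD8 T cells the genes went both ways. B2m was lower in anti-PDCD1 than in anti-TIGIT CD8 T cells, at 2439 CPM (2401 to 2478) against 2800.01 CPM (2729.99 to 2871), a log2 ratio of -0.20 (-0.24 to -0.16), while H2-T23 had a log2 ratio of 0.32 (0.23 to 0.41). Nlrc5 stood at 132 CPM (123 to 142) in anti-PDCD1 against 161 CPM (144 to 178) in anti-TIGIT CD8 T cells, a log2 ratio of -0.28 (-0.46 to -0.10). Over the 110 pairs of gene and class, 19 were at least 2-fold higher and none lower, beside 2.01% and 1.63% (3.64% in either direction) of all 127732 pairs. The 19 were 10 in oligodendrocytes, 8 in OPCs and 1 in fibroblasts.

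ILC2, a class of innate lymphocytes below the 100 cells asked of a comparison (87 and 52 cells), is given as values only. There 3 of the 10 genes were at least 2-fold higher in anti-PDCD1 and none lower, beside 11.5% and 10.8% of the 5331 genes tested. H2-T23 stood at 853 CPM (755 to 960.4) in anti-PDCD1 against 332 CPM (242 to 446) in anti-TIGIT, a log2 ratio of 1.36 (0.90 to 1.85). Psmb9 had 84 UMIs in anti-PDCD1 and 12 in anti-TIGIT, a log2 ratio of 1.52 (0.64 to 2.53), and Tap2 had 49 and 9, a log2 ratio of 1.16 (0.12 to 2.37). The median of log2(CPM + 5) ratios was 0.83 over the 10 genes and -0.03 over all genes tested, and cell numbers this small leave wide intervals.

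**Figure D3:**
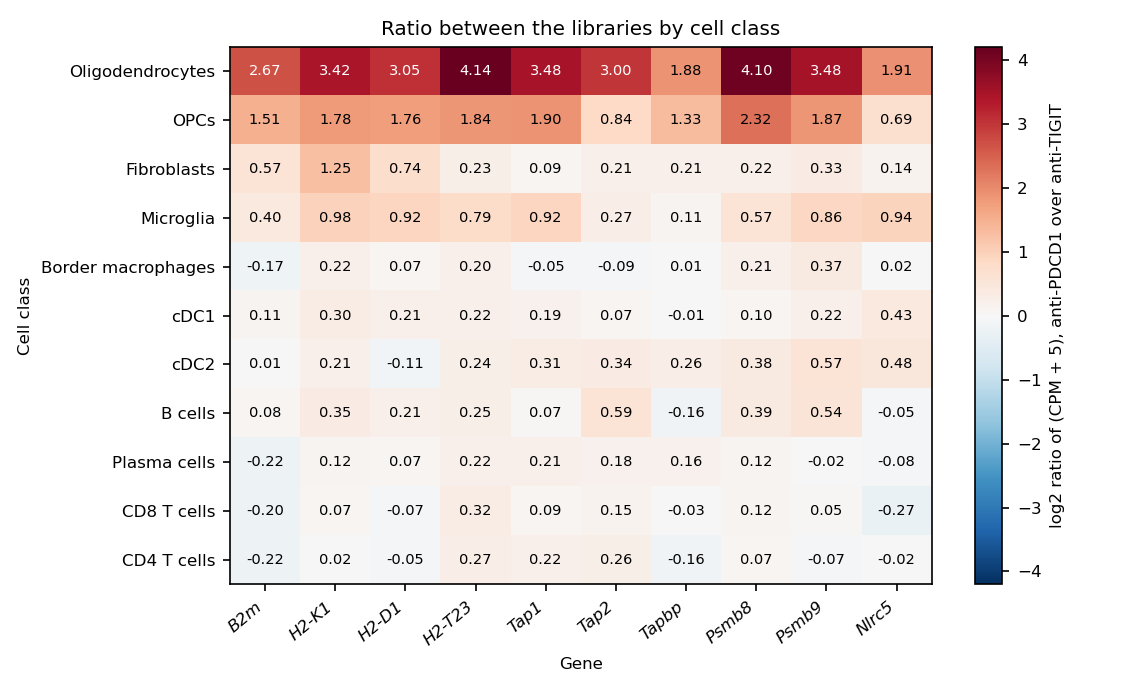
The log2 ratio of (CPM + 5), anti-PDCD1 over anti-TIGIT, of the 10 genes in 11 cell classes, with 1 library per group. In oligodendrocytes the ratios run over 1.88 to 4.14 and in OPCs over 0.69 to 2.32, while in CD8 T cells they run over -0.27 to 0.32.

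Across the 14 classes, T cells carried the most H2-K1 in both libraries. Regulatory T cells led at 5249 CPM (5124 to 5377) in anti-PDCD1 and 4672 CPM (4429 to 4925) in anti-TIGIT. In the anti-PDCD1 library CD4 T cells, NK cells and ILC2 followed with overlapping intervals at 4479, 4305 and 4273 CPM, then CD8 T cells and microglia at 3790.3 and 3763 CPM, also overlapping. The low end there ran from plasma cells at 2036 CPM through OPCs at 1725 and oligodendrocytes at 1063 to fibroblasts at 999 CPM, each apart from its neighbour. In the anti-TIGIT library the low end had OPCs at 497 and fibroblasts at 416 CPM, which overlapped, above oligodendrocytes at 94.8 CPM.

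For H2-D1, anti-PDCD1 oligodendrocytes reached the range of immune cells of the same library, at 2427 CPM between cDC1 at 2496 CPM (2442 to 2551) and CD8 T cells at 2377 CPM (2339 to 2415). For H2-T23 they stood at 764 CPM, between CD4 T cells at 787 CPM (746 to 829.7) and cDC2 at 758 CPM (724 to 794). For B2m they lay below every immune class, beside OPCs at 1512 CPM (1472 to 1552), whose interval overlapped theirs. In the anti-TIGIT library oligodendrocytes were lowest of the 14 classes for 8 of the 10 genes, apart from the next class each time. The exceptions were Tapbp, lower in OPCs at 16.8 CPM (7.24 to 33.1), and Nlrc5, lower in fibroblasts at 2.98 CPM (0.361 to 10.8), and both overlapped the interval of oligodendrocytes.

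The loading genes had another order, led by cDC1, the dendritic cells that cross-present antigen to CD8 T cells. Tap1 stood at 250.2 CPM (233 to 268) in anti-PDCD1 cDC1 and 219 CPM (188 to 253) in anti-TIGIT cDC1. Psmb9 stood at 700.3 CPM (672 to 729.8) and 602 CPM (550.5 to 657) in cDC1 of anti-PDCD1 and anti-TIGIT. Of the 5 genes that cDC1 led in both libraries (Tap1, Tap2, Tapbp, Psmb8 and Psmb9), Psmb9 alone was apart from the next class in both. Nlrc5 was high in T cells, with 133 CPM (116 to 151) in anti-PDCD1 and 135 CPM (112 to 161) in anti-TIGIT CD4 T cells, overlapping with CD8 and regulatory T cells of the same library.

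**Figure D4:**
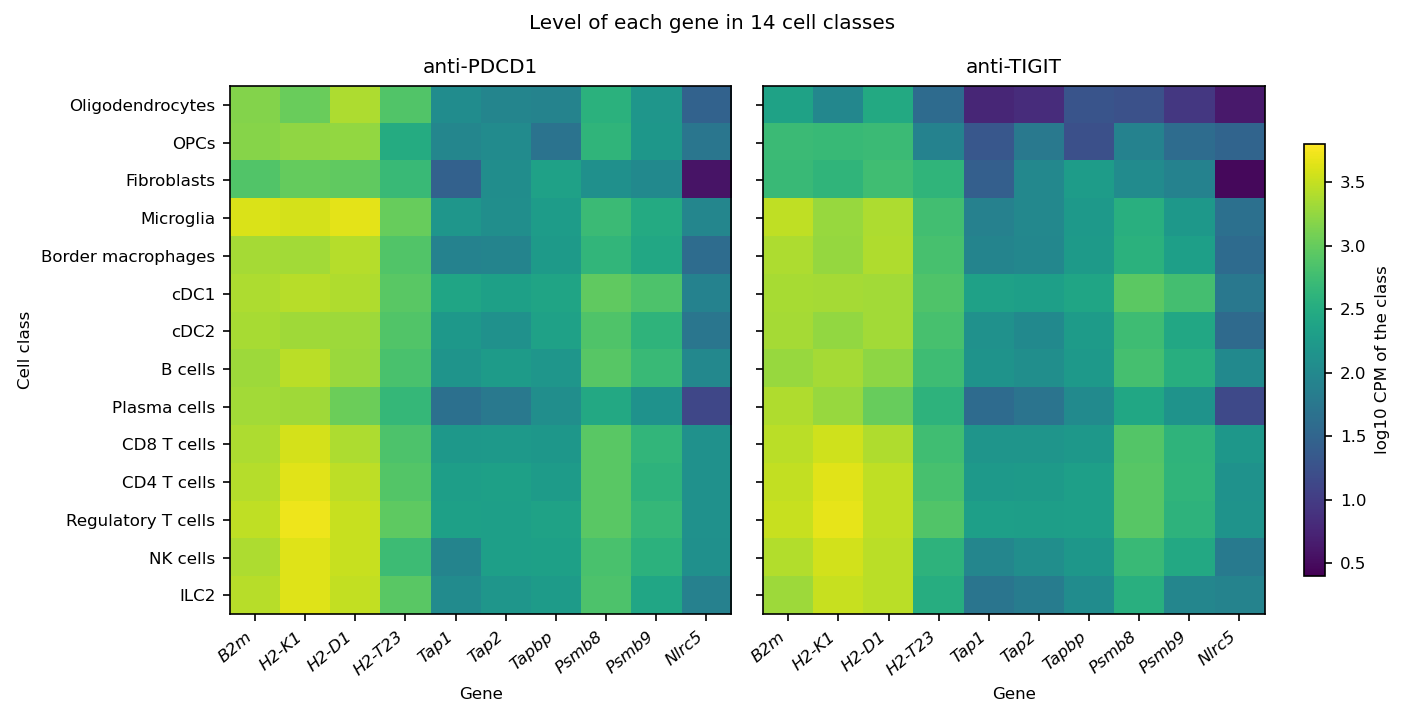
Level of each of the 10 genes, as log10 CPM in colour, in 14 cell classes, with anti-PDCD1 in the left panel and anti-TIGIT in the right, 1 library each. The rows of oligodendrocytes and OPCs differ most between the panels; H2-K1 in oligodendrocytes is 1063 CPM in anti-PDCD1 and 94.8 CPM in anti-TIGIT.

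The difference was also seen cell by cell, although not in every cell. With each cell thinned to 1000 UMIs, at least 1 UMI of H2-K1 was seen in 46.2% (44.2 to 48.3) of 2329 oligodendrocytes of anti-PDCD1 and in 6.81% (5.72 to 8.03) of 1910 of anti-TIGIT, a difference of 39.4 points (37.1 to 41.7). Unthinned, the shares were 61.6% and 22.9% at median depths of 6322 and 6199 UMIs, and 178 and 60 cells were too shallow to thin. The thinned shares were 28.5% (26.6 to 30.3) in anti-PDCD1 and 1.68% (1.15 to 2.36) in anti-TIGIT for H2-T23. For Psmb8 they were 24.1% (22.4 to 25.9) in anti-PDCD1 and 1.52% (1.02 to 2.17) in anti-TIGIT. By sex, the H2-K1 difference was 22.4 points in oligodendrocytes with Xist UMIs only and 43.1 points in those with Y-linked UMIs only. Summed over the 10 genes, a thinned oligodendrocyte held a median of 3 UMIs in anti-PDCD1 and 0 in anti-TIGIT, and 29.3% (27.4 to 31.2) against 1.57% (1.06 to 2.23) held at least 10. Even so, 35.0% of anti-PDCD1 oligodendrocytes held none, against 71.0% of anti-TIGIT oligodendrocytes.

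The genes were seen in the same cells. The 1077 thinned anti-PDCD1 oligodendrocytes with an H2-K1 UMI are set here beside the 1252 without one. H2-D1 was seen in 91.3% and 24.9% of them, B2m in 84.0% and 21.7%, H2-T23 in 53.9% and 6.55% and Psmb8 in 45.4% and 5.75%. The remaining genes were unseen in most cells with H2-K1. Psmb9 was seen in 23.7% and 2.64%, Tap1 in 18.5% and 1.84% and Tap2 in 14.6% and 2.32%. For Tapbp the shares were 13.4% and 2.88%, and for Nlrc5 5.76% and 1.44%. The constitutive Psmb5 was seen in 19.2% and 21.2%. Tyrobp, a myeloid gene, was seen in 12.3% and 2.56%. In anti-TIGIT, H2-D1 was seen in 57.7% and 12.98% of the 130 oligodendrocytes with an H2-K1 UMI and the 1780 without one.

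Oligodendrocytes of the libraries fell unequally into transcriptome clusters, which were made without the 10 genes. Other class I genes and Psmb10 were not left out, so the clusters are not independent of the pathway. Cluster 1 held 22.2% of anti-PDCD1 and 2.64% of anti-TIGIT oligodendrocytes. Its first leading genes were Mag, Car2, Cldn11, Serpina3n and C4b, and Mag was also among those of clusters 2, 13 and 29. Cluster 13 held 209 and 0 oligodendrocytes, which allows no comparison there. In each of the 6 clusters with enough cells of both, the median of the 10 genes was above 0 and none of them was 2-fold lower. In cluster 1 (557 and 52 cells) it was 1.34, with 8 of the 10 at least 2-fold higher, beside 4.56% of all genes higher and 1.23% lower. In cluster 2 (660 and 741 cells) it was 2.30, with all 10 higher, beside 0.718% higher and 0.11% lower. In cluster 3 (208 and 295 cells) it was 3.08, with all 10 higher, beside 1.68% higher and 2.27% lower. Cluster 20 (117 and 172 cells) had 8 of the 10, beside 1.04% higher and 0.229% lower, and cluster 29 (403 and 592 cells) also 8, beside 0.615% and 0.0939%, with medians of 1.90 and 2.13. Cluster 30 (254 and 107 cells), with a median depth of 856 UMIs, had all 9 genes that could be tested there, beside 13.7% higher and 5.19% lower, and a median of 3.65. Counts behind its anti-TIGIT values were small, with 0 UMIs for Tap1 and 1 each for Tap2 and Psmb8. Tapbp and H2-T23 had 2 each, Psmb9 had 3 and H2-K1 had 6, so the size of these ratios is uncertain.

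Levels differed among these clusters as well as between the libraries. H2-K1 stood at 2318 CPM in anti-PDCD1 and 712 CPM in anti-TIGIT cells of cluster 1, at 573 and 102 CPM in cluster 2, and at 322 and 54.4 CPM in cluster 29. Anti-TIGIT cells of cluster 1 thus carried more H2-K1 than anti-PDCD1 cells of clusters 2 and 29. The genes under 2-fold within a cluster were B2m (0.94) and Tapbp (0.63) in cluster 1, Tapbp (0.90) and Nlrc5 (0.69) in cluster 20, and Tapbp (0.52) and Nlrc5 (0.83) in cluster 29, as log2 ratios of (CPM + 5). Cluster 14, that of OPCs (598 and 101 cells), had 8 of the 10, beside 3.98% higher and 3.23% lower, with a median of 1.78.

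**Figure D5:**
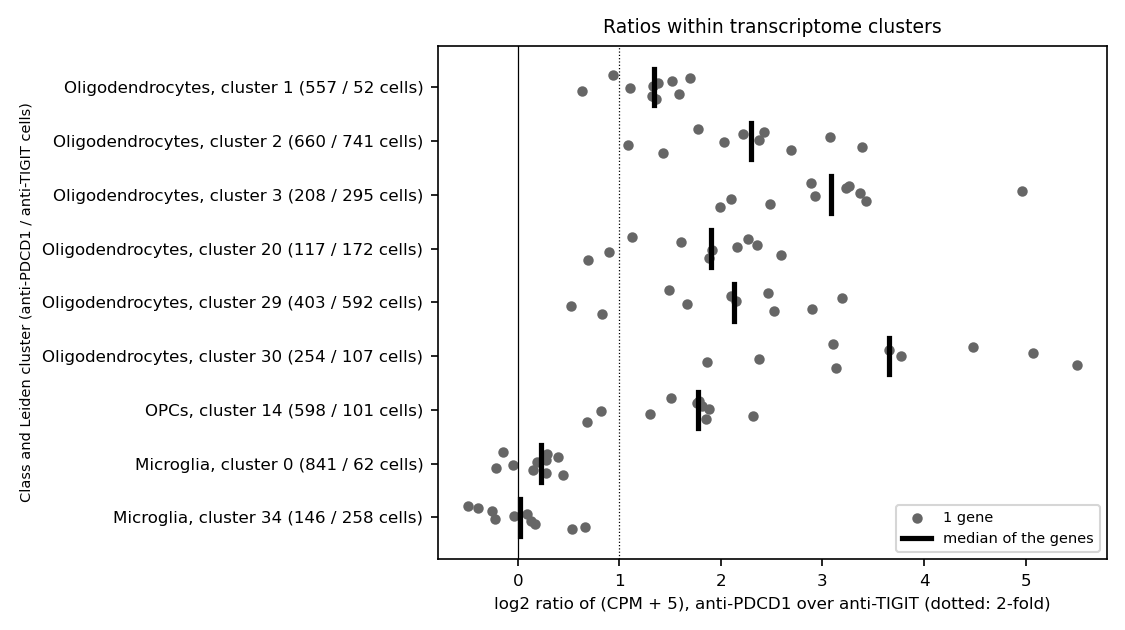
The log2 ratio of (CPM + 5), anti-PDCD1 over anti-TIGIT, of the 10 genes (9 in cluster 30) as points, with the median as a bar, within 9 transcriptome clusters of oligodendrocytes, OPCs and microglia. The medians run over 1.34 to 3.65 in the oligodendrocyte clusters, and are 0.23 and 0.03 in the microglial clusters. The highest, that of cluster 30, rests on small anti-TIGIT counts, from 0 UMIs for Tap1 to 41 for B2m.

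Immune transcripts were also higher in these cells. The summed level of 8 immune markers (Ptprc, Cd3e, Tyrobp, C1qa, C1qb, Lyz2, Cd79a and Jchain) in oligodendrocytes was 525 CPM in anti-PDCD1 and 96.2 CPM in anti-TIGIT, with 8 of 8 higher in anti-PDCD1 and none at 0. In OPCs the sum was 295 against 103 CPM, with 7 of 8 higher and Ptprc, Tyrobp and Cd79a at 0 in anti-TIGIT, and in fibroblasts 260.2 against 92.5 CPM, with 6 of 8 higher. B2m had 38.0 UMIs per Tyrobp UMI in anti-PDCD1 and 29.4 in anti-TIGIT oligodendrocytes, against 1.16 and 1.09 in microglia. At the ratios to Tyrobp in microglia, Cd3e in CD8 T cells, Jchain in plasma cells and Cd79a in B cells of the same library, these markers would bring along 2.38% to 6.98% of the level of each of the 10 genes in anti-PDCD1 oligodendrocytes and 3.95% to 13.96% in anti-TIGIT oligodendrocytes. The same sum came to 3.44% and 3.19% of H2-K1 in fibroblasts, and to 4.72% at most of any of the 10 in anti-PDCD1 OPCs. It is not given for anti-TIGIT OPCs, where Tyrobp and Cd79a had no UMI. In oligodendrocytes without any UMI of Ptprc, Cd3e, Tyrobp or C1qa, the median log2 ratio of the 10 genes was 3.24. The difference in the H2-K1 share was smaller in these cells, as given below. They may still hold Jchain, the highest of the 8 markers at 273 CPM in anti-PDCD1 oligodendrocytes, or C1qb, Lyz2 and Cd79a. The part of immune transcripts in the differences of the 10 genes was not tested.

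Other class I heavy chains went with the classical ones in oligodendrocytes. Of 15 such genes 13 were in the files and 9 had at least 10 UMIs, with a median of 1.87. At least 2-fold higher in anti-PDCD1 were 6, beside 1.7% of all genes tested. H2-Q4 stood at 202 CPM against 10.6 CPM, a log2 ratio of 4.26 (4.02 to 4.51). H2-Q7, which encodes a Qa-2 chain, stood at 91.8 against 2.99 CPM, a log2 ratio of 4.94 (4.49 to 5.42). H2-M3, which presents formylated peptides, stood at 31.3 against 1.24 CPM, a log2 ratio of 4.66 (3.97 to 5.45). The other 3 were H2-T22, H2-T24 and H2-Q6, for which the sum over 4 immune sources given above came to 22.4% of its level in anti-PDCD1 and 133% in anti-TIGIT, and H2-Q1 had 20 UMIs in anti-PDCD1 and 0 in anti-TIGIT. Class I genes are close copies, and 4.64% of the 100-base windows of the H2-D1 transcript and 7.28% of those of H2-T23 occur in transcripts of other genes. None of these windows lies in the first 500 bases, near the end that a 5′ library reads, and H2-K1 shared none at all.

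Of the chaperones that fold and load class I, those that serve many glycoproteins were alike between the libraries. Calr lay at 123 against 125 CPM, Canx at 309.7 against 318 CPM and Pdia3 at 281 against 296 CPM. Among 7 genes 2 were at least 2-fold higher in anti-PDCD1, beside 1.7% of all genes tested, and the median was 0.20. The 2 were Tapbpl, a relative of tapasin, with a log2 ratio of 2.87 (2.45 to 3.33), and Erap1, which trims peptides, with 1.36 (1.08 to 1.65). The genes of the proteasome activator, Psme1 and Psme2, were also at least 2-fold higher, with log2 ratios of 2.49 (2.30 to 2.69) and 1.43 (1.32 to 1.54). With Psmb10 they made 3 of the 4 genes of their list, beside the same 1.7% of all genes. The assembly factor gene Pomp had 0.11 (0.04 to 0.19).

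Among 15 genes of regulators, 5 were at least 2-fold higher in anti-PDCD1 oligodendrocytes and none lower, beside 1.7% and 0.189% of all genes tested. The median of the 15 was 0.12. Irf1, a transcription factor gene that interferon gamma induces, stood at 82.2 CPM in anti-PDCD1 against 5.55 CPM in anti-TIGIT, a log2 ratio of 3.89 (3.56 to 4.24). Also among them were Irf9, a transcription factor gene of interferon signalling, with 2.12 (1.86 to 2.39), Socs1, a feedback inhibitor of cytokine signalling, with 3.32 (2.61 to 4.13), and Irf8, which microglia and B cells also express, at 8.15 CPM in anti-PDCD1 against 0.730 CPM in anti-TIGIT. The sum over 4 immune sources given above came to 76.9% of Irf8 in anti-PDCD1 and 184% in anti-TIGIT oligodendrocytes. The part of immune transcripts in the Irf8 difference there was not tested. The same sum came to 9.94% and 25.1% of Irf1, 2.17% and 2.33% of Irf9, and 18.5% and 34.8% of Socs1. The genes of the RFX, NF-Y and CREB factors, which bind the promoters of class I genes, were Rfx5, Rfxap, Rfxank, Nfya, Nfyb, Nfyc and Creb1, and all lay between -0.20 and 0.15 on the scale of log2(CPM + 5). The 4 interferon receptor genes lay between -0.03 and 0.37, none 2-fold apart. Ifng had 11 UMIs in anti-PDCD1 and 0 in anti-TIGIT oligodendrocytes, and Ifnb1 and Ifna4 had 0 in both.

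In OPCs the same lists held 5 of 6 class I genes, 2 of 6 chaperones (Tapbpl and Erap1), 2 of 4 immunoproteasome and activator genes (Psmb10 and Psme1) and 4 of 15 regulators (among them Irf1, Irf8 and Irf9) at least 2-fold higher in anti-PDCD1. Of all 13126 genes tested in OPCs, 4.02% were that much higher and 3.17% that much lower. The NF-Y subunit gene Nfya was lower there, at 13.7 CPM against 33.6 CPM over 16 UMIs in anti-TIGIT. H2-Q4 led the class I genes of OPCs at 379 CPM against 65.0 CPM, a log2 ratio of 2.54 (2.03 to 3.11). Irf8 had 105 UMIs in anti-PDCD1 and 0 in anti-TIGIT OPCs, where Tyrobp was also at 0, and the part of immune transcripts in it was not tested. In microglia 2 of 10 class I genes, H2-Q7 and H2-M2, were at least 2-fold higher, beside 1.06% of all genes tested. H2-Q7 stood there at 349 against 139 CPM.

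Over 22 profiles, those of the 11 compared classes in both libraries, the 10 genes ran closely together. Pearson's correlation of log2(CPM + 5) of each with the mean of the other 9 ran over 0.73 for Tapbp to 0.98 for Psmb8. The profiles share libraries and depth, so this is a description. Among 7520 genes with at least 10 UMIs in every class, the 5 most like the mean of the 10 were H2-M3 (0.93), Tapbpl (0.90), Uba7 (0.89), Zbp1 (0.89) and H2-Q4 (0.89). In oligodendrocytes Zbp1 stood at 113 CPM in anti-PDCD1 and 3.79 CPM in anti-TIGIT, and Uba7 at 14.1 and 0.584 CPM.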

How the data were processed

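UMI counts of 32285 genes were deposited as 1 filtered 10x matrix per library, made with Cell Ranger 8.0.0 (anti-PDCD1) and 8.0.1 (anti-TIGIT) per the file headers, so version and treatment cannot be told apart. Per the labels' protocols the libraries were 10x 5′ libraries, and per the submitters' processing notes the build was mm10. From the counts, cells with under 200 genes or over 10% mitochondrial UMIs and doublets called by Scrublet (591 in anti-PDCD1, 145 in anti-TIGIT) were removed. Classes were gated on markers of 23 classes (an oligodendrocyte has at least 4 of 9 markers), and a cell meeting more than 1 lineage was left out. Leiden clusters (resolution 1) used 2000 variable genes and 30 components with scanpy 1.11.5, without the 10 genes. Level intervals are exact Poisson, shares exact binomial. The genes named are the 10, the listed pathway genes past 2-fold with their stated partners, and the 5 most alike, and some results are not reported here. The 10 genes, lists and gates were chosen with earlier results of these data known. Only the ratio interval and the 2-fold call were tried on simulated data. These were Poisson counts of the oligodendrocyte sums, without variation between cells or libraries, so they cannot test such variation. There 81% of 200 planted changes, each about 4-fold and in genes with at least 50 UMIs, were called at least 2-fold apart. Changes near 2-fold were not planted. The intervals held the set ratio for 96.0% of genes. Alternatives of filter, gate, sex, depth, scaling, pseudocount and minimum count were tried.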

Additional observations from a re-analysis of the deposited data

Results flagged for a closer look

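In 7 cases a gene lay below 0 in an immune class, with its counting interval, while it lay above 0 in oligodendrocytes, that is, anti-PDCD1 over anti-TIGIT went opposite ways. These differences between classes were not tested, since each group has 1 library. B2m had log2 ratios of -0.17 (-0.24 to -0.092) in border macrophages, -0.22 (-0.26 to -0.18) in plasma cells, -0.20 (-0.24 to -0.16) in CD8 T cells and -0.22 (-0.29 to -0.15) in CD4 T cells, beside 2.69 in oligodendrocytes. H2-D1 had -0.11 (-0.17 to -0.057) in cDC2 and -0.066 (-0.11 to -0.021) in CD8 T cells, beside 3.08 in oligodendrocytes. Nlrc5 had -0.28 (-0.46 to -0.096) in CD8 T cells, beside 2.81 in oligodendrocytes. All 7 were under 2-fold in the immune class and lay between the 5th and 95th percentiles of all genes tested there. On the scale of log2(CPM + 5) these percentiles were -0.70 and 0.56 in border macrophages and -0.45 and 0.47 in plasma cells. They were -0.53 and 0.60 in CD8 T cells, -0.60 and 0.82 in CD4 T cells and -0.61 and 0.53 in cDC2. The share of all genes with an interval below 0 was not computed.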

How the results depend on the processing

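All 10 genes were at least 2-fold higher in anti-PDCD1 oligodendrocytes under each of 17 alternatives. The median of the 10 moved to 3.60 in cells with Xist UMIs only and 2.58 with a pseudocount of 20 CPM. The difference in the share with H2-K1, 39.4 points, moved to 22.4 in cells with Xist UMIs only and 43.1 in those with Y-linked UMIs only. It was 34.8 in cells without UMIs of Ptprc, Cd3e, Tyrobp or C1qa and 29.3 thinned to 500 UMIs. In alternatives chosen after seeing the data it was 35.5 in cells with at least 2000 UMIs and 35.8 without oligodendrocytes of clusters of 1 library. The pairs of gene and class at least 2-fold apart, 19 of 110 beside 3.64% of all pairs, were 39 of 109 in cells with Xist UMIs only, beside 14.2% of all pairs, where plasma cells of anti-TIGIT came to 5 cells and B cells to 12. They were 20 of 109 in cells with Y-linked UMIs only, beside 8.74%, and 23 of 110 when scaled to the median gene of each class, beside 3.55%. The cause of these moves was not tested. Over 32 further values, 376 of 544 recomputed values stayed within the counting interval and 168 moved. The recomputed values are on the scale of log2(CPM + 5), while the intervals are those of the ratio without the 5 CPM. Some main values thus lie outside their own interval, as with Psmb8 in oligodendrocytes at 4.10 beside 4.26 to 4.64. The 168 therefore include this mismatch of scale and do not measure dependence on processing alone. No paired analysis was possible because each group has 1 library and no replicate numbers. The same limit leaves treatment, pool, sex mix and software version confounded.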
